A study of Arabidopsis thaliana with 12 samples.

Results

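The genes described here encode berberine-bridge-enzyme-like oxidases of Arabidopsis thaliana. They were chosen by gene identifier, with earlier results of these data known. The list had 10 genes: OGOX1 (AT4G20830), OGOX2 (AT4G20840), OGOX3 (AT1G11770), OGOX4 (AT1G01980), CELLOX (AT4G20860), AT1G26390, AT1G26410, AT1G26420, AT1G30700 and AT2G34790. Of these, 9 were among the 23106 genes analysed, and OGOX3 was not analysed here. The data are poly-A RNA sequencing of seedling roots in 4 groups of 3 libraries. All seedlings descended from the T-DNA line cork1-2 crossed to a wild type that carries the calcium reporter aequorin, so 1 insertion line stands for the mutant. HO seedlings were homozygous for the insertion in the receptor kinase gene CORK1 (AT1G56145), and SWT seedlings were wild-type segregants of that cross. After 10 days of growth and 1 further day on fresh medium, 16 seedlings on 2 dishes received 1 mL of 10 µM cellotriose (CT) or water for 1 h. The groups were HO with CT, HO with water, SWT with CT and SWT with water. The labels do not say that the libraries of a group came from separate cultures, so p-values measure the spread between these libraries, which may be technical.

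Berberine-bridge-enzyme-like proteins are secreted flavoproteins that oxidise small substrates. Some, OGOX and CELLOX among them, pass the electrons to oxygen, which yields hydrogen peroxide. OGOX enzymes oxidise oligogalacturonides, the pectin fragments that act as damage signals, and CELLOX oxidises cellodextrins, the class of cellulose fragments to which CT belongs. Oxidised oligogalacturonides are weaker elicitors than the native ones, so these enzymes are known as a brake on wall-fragment signalling. AT1G26390, AT1G26410 and AT1G26420 are tandem relatives of AT1G26380 (FOX1), which acts in the synthesis of an indole defence compound. AT2G34790 is annotated as MEE23, and its protein oxidises monolignols, the lignin precursors, in vitro.

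RefSeq's TAIR10.1 annotation lists 27 genes as FAD-binding berberine family, all on these lists: the 10 oxidase genes and 17 others, of which 11 were analysed. OGOX1 (chromosome 4, 11155453 to 11157806, plus strand) and OGOX2 (11157916 to 11159867, plus strand) lie 109 bases apart, and their coding sequences are 81.5% identical. CELLOX lies on the same strand, 12754 bases after OGOX2 (11172622 to 11174467). AT1G26390, AT1G26410 and AT1G26420 lie on the minus strand of chromosome 1 with AT1G26380, between 9126737 and 9143336, and are 82.6% to 86.7% identical to each other. AT1G30700 (chromosome 1, 10892445 to 10894714) heads another tandem row, AT2G34790 is on chromosome 2 (14673840 to 14677398), and OGOX4 is on chromosome 1 (340108 to 342040). Over the 45 pairs of the 10 genes, the median coding identity was 57.1%. Of every 75-base exon window in these genes, only 3 of 1693 in AT1G26390 and 3 of 1762 in AT1G26410 occurred a second time in the genome. OGOX1 and OGOX2 had none in 2052 and 1878 windows. Only exact repeats were counted, so near copies that differ by a base were not covered. On the opposite strand, AT4G20835 overlaps 1570 bases of OGOX1, AT4G20870 overlaps 18 bases of CELLOX, and AT2G34780 and the long noncoding gene AT2G08685 overlap 65 and 538 bases of AT2G34790. No source used here gives the strand setting of the counting, and reads of such pairs cannot be told apart. AT4G20835 and AT2G08685 were not analysed here.

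The stretches just before the annotated starts are shown for the OGOX1 and OGOX2 pair, of which only OGOX1 passed the test with CT in SWT, for CELLOX, and for AT1G26420, which had the largest response to CT among the members that passed the test. They are RefSeq TAIR10.1 sequence in the direction of the gene, and the last base precedes the annotated start. Capitals mark the W-box core TTGAC, the element that WRKY factors recognise, or its reverse complement GTCAA. The positions are chr4:11155203-11155452 (plus) for OGOX1, chr4:11157807-11157915 (plus) for OGOX2, where the 109 bases are all that separates it from OGOX1, chr4:11172372-11172621 (plus) for CELLOX and chr1:9143337-9143586 (minus) for AT1G26420.
OGOX1: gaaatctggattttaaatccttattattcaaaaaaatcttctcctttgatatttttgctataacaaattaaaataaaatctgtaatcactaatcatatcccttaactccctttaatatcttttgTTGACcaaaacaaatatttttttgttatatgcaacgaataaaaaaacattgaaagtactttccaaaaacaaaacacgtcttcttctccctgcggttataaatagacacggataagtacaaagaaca
OGOX2: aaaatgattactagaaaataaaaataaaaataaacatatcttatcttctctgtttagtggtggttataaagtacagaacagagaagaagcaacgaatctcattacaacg
CELLOX: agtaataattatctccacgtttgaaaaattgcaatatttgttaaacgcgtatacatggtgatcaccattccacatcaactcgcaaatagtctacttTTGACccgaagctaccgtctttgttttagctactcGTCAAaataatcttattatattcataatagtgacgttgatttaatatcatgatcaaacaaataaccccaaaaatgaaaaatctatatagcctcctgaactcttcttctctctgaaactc
AT1G26420: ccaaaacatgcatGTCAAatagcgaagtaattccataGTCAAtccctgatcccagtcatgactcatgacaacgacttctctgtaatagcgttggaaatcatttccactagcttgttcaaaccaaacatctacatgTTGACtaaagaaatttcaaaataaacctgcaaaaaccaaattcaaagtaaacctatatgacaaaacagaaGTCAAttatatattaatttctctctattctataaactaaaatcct
OGOX1 had 1 match, at 126 bases before the start. OGOX2 had 0, both in its 109 bases and in the 250 bases before its start, which reach into OGOX1. CELLOX had 2. AT1G26420 had 4, the nearest at 45 bases before the start. In windows of 250 bases, 9 of the 10 oxidase genes and 10 of the 17 other family genes had 1 match or more, against 45.3% of 22983 windows over the genes analysed. With 4 matches or more, the share over all windows was 0.753%. The count of matches did not order the responses to CT in SWT: of the other family genes with 4 matches, AT1G26380 had a log2 fold change of 4.29, while AT1G30720 and AT5G44400 had 0.41 and 0.40. A match is a run of letters and not a binding site.

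The files give, per gene, the authors' fitted log2 fold changes and the mean normalised count over 12 libraries. Group levels were recovered from these values, values of single libraries were not analysed here, and the depth per library is unknown. CORK1 itself had 302 normalised counts per library in HO with CT and 255 in HO with water, against 1999 in SWT with CT and 1413 in SWT with water, and HO fell by 2.47 on the log2 scale in water (SE 0.16, adjusted p = 2.9e-52). All 7 root marker genes were present, and their summed level lay between 7183 and 8405 counts over the groups. All 5 leaf marker genes were present too, summing to 2396 in HO with CT and 2389 in HO with water, against 1453 in SWT with CT and 2154 in SWT with water. RBCS1A made up most of each sum (2004, 1905, 1213 and 1721 in the same order). The log2 fold changes of all 5 with CT in SWT were negative, between -2.41 and -0.50. Of these, 1 passed the test (LHCB2.1, adjusted p = 0.041), against 3.23% of all genes lower with CT. The -2.41 was that of RBCS2B, which had no adjusted p there. Over a group, RBCS2B had 2.96 counts in HO with CT and 1.09 in SWT with CT, under the floor of 3, so its values rest on a few counts. With CT present, all 5 were higher in HO than in SWT. By the z test of that derived difference 2 passed, against 4.28% of all genes. These were RBCS1A (log2 0.72, adjusted p = 0.0041) and LHCB2.1 (log2 0.83, adjusted p = 0.048). The part of the leaf markers in the results was not tested. In such bulk samples, fewer cells of a type and less RNA per cell cannot be told apart.

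With CT in SWT roots, transcripts of 5 of the 9 oxidase genes rose and none fell. OGOX1, AT1G26410 and AT1G26420 were called, meaning an adjusted p below 0.05 and a change of at least 1.33 on the log2 scale, which is 2.51-fold. CELLOX and AT1G30700 passed the adjusted p alone, with 1.81-fold and 1.96-fold higher levels. On statistics divided by their spread over all genes, CELLOX (adjusted p = 0.13) and AT1G26410 (0.20) no longer passed, which left 3 of 9. That spread was 1.45 in SWT and was taken over all genes, those that responded to CT included. It is therefore not a measure of noise alone. Among all genes with an adjusted p, 2.58% were called higher and 8.3% were higher by the adjusted p alone. OGOX4, the least expressed, had no adjusted p. The median log2 fold change of the 9 genes was 1.06 (1.02 without OGOX4), against -0.02 over all genes with a mean of at least 50 counts. In HO roots, 0 of the 9 were called with CT by the authors' DESeq2 test, against 0.00866% of all genes. At an unadjusted p below 0.05, 3 were higher in HO with CT (AT1G26390, AT1G26410 and AT1G26420), against 1.28% of all genes. The median log2 fold change in HO was 0.24 (0.29 without OGOX4).

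**Figure D1:**
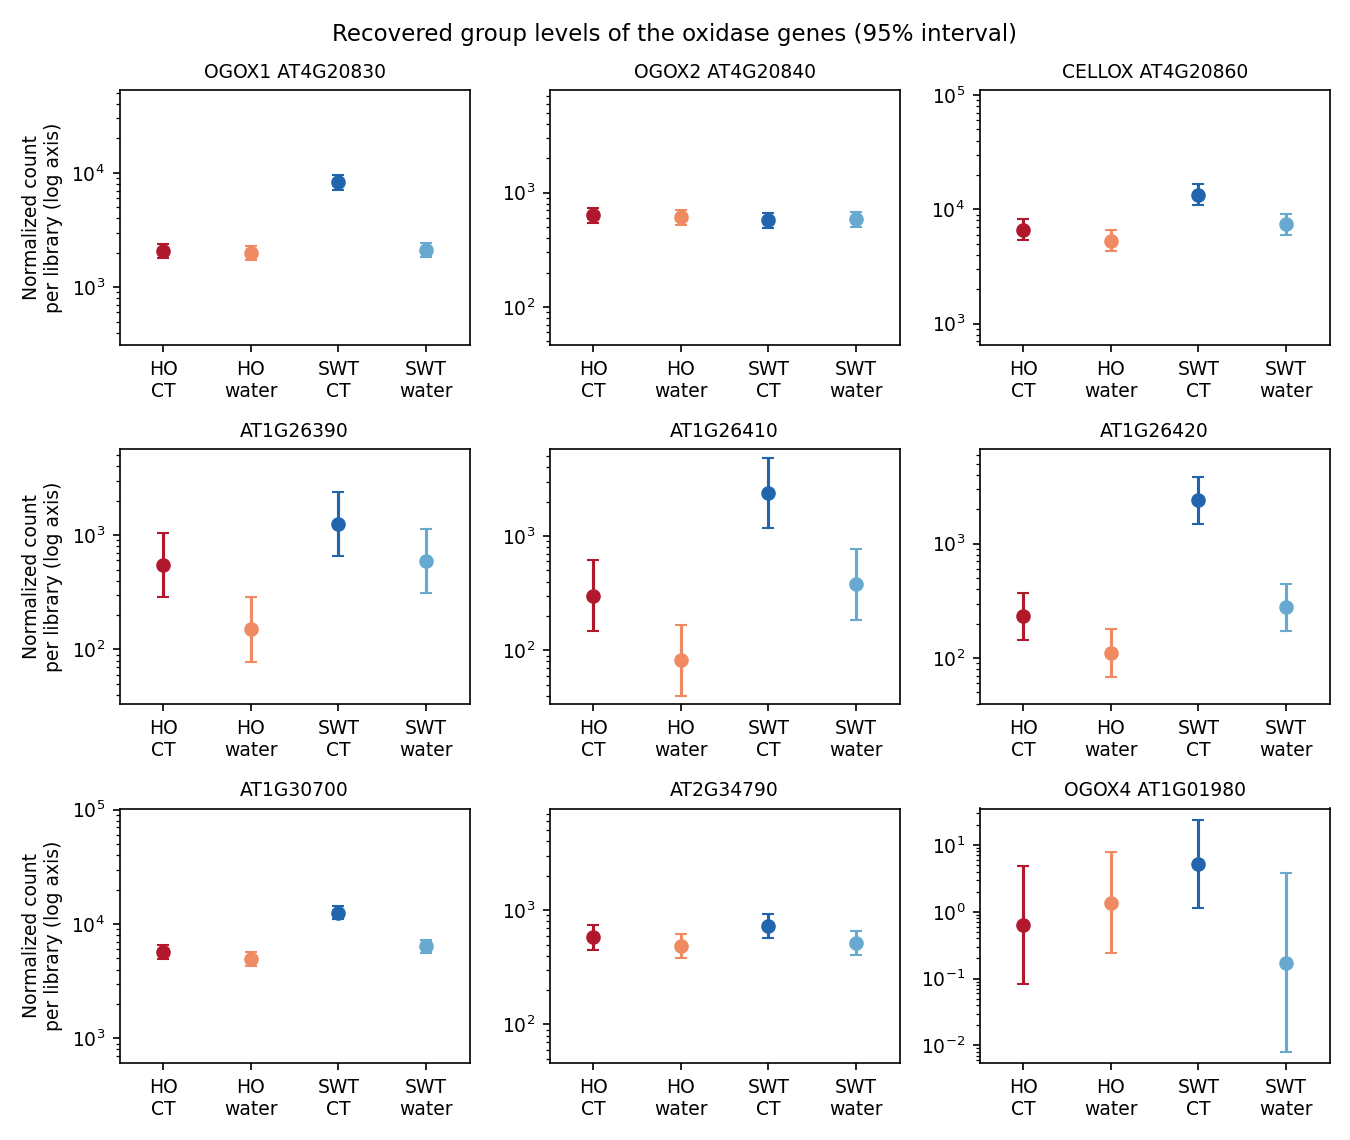
Recovered mean normalised count per library (y axis, log scale) of the 9 oxidase genes in HO with CT, HO with water, SWT with CT and SWT with water; points are group means of 3 libraries and bars are 95% intervals from the fitted spread. The y axes of the first 8 panels span the same number of log units; OGOX1 stands at 8241 counts in SWT with CT and between 1983 and 2121 in the other 3 groups, while OGOX2 lies between 573 and 635 in all 4.

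OGOX1, an oligogalacturonide oxidase, rose with CT in SWT and had the smallest p of the 9 genes. It reached 2060 normalised counts per library in HO with CT (95% interval 1781 to 2384) and 1983 in HO with water (1714 to 2295), against 8241 in SWT with CT (7133 to 9521) and 2121 in SWT with water (1833 to 2455). The interval of SWT with CT lay above those of the other 3 groups, which overlapped each other. The log2 fold change with CT was 0.06 in HO (SE 0.15, adjusted p = 1.00) and 1.96 in SWT (SE 0.15, adjusted p = 2.0e-35), a 3.88-fold rise in SWT that ranked 23 by p among all genes. The response in HO was smaller than in SWT by 1.90 on the log2 scale (95% interval -2.32 to -1.48, adjusted p = 7.5e-16). In water, HO and SWT differed by -0.10 (SE 0.15, adjusted p = 1.00).

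OGOX2, its neighbour and closest relative here, had 635 and 611 normalised counts per library in HO with CT and with water, against 573 and 587 in SWT with CT and with water. All 4 intervals overlapped. Its log2 fold change with CT was 0.05 in HO (95% interval -0.25 to 0.36) and -0.03 in SWT (-0.34 to 0.28), so a change as large as that of OGOX1 in SWT lay outside both intervals. The remaining OGOX gene measured, OGOX4, amounted to 22.0 normalised counts over all 12 libraries. By group these were 1.90 in HO with CT and 4.13 in HO with water, against 15.5 in SWT with CT and 0.522 in SWT with water. The group levels in HO with CT and SWT with water were under the floor of 3 counts over a group, and a difference was not detectable at this depth (unadjusted p = 0.052 for CT in SWT).

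CELLOX, the oxidase of cellodextrins, had the highest level of the 9 genes per kilobase of exon, though its intervals overlapped those of AT1G30700. It had 6644 normalised counts per library in HO with CT (95% interval 5373 to 8214) and 5300 in HO with water (4286 to 6554), against 13405 in SWT with CT (10844 to 16570) and 7398 in SWT with water (5984 to 9147). Only the SWT level with CT lay apart from the others. In SWT it rose 1.81-fold with CT (log2 0.86, SE 0.22, adjusted p = 0.0018), under the fold criterion, and this did not pass on statistics divided by their spread over all genes (adjusted p = 0.13). In HO the log2 fold change was 0.33 (95% interval -0.11 to 0.76, adjusted p = 1.00). The difference between the 2 responses was -0.53 (95% interval -1.14 to 0.08, adjusted p = 0.55), so a smaller response of CELLOX in HO was not shown. With CT, CELLOX was lower in HO than in SWT by 1.01 on the log2 scale (SE 0.22, adjusted p = 1.1e-04, or 0.059 on the divided statistics), and the difference in water was -0.48 (adjusted p = 0.99).

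Of the tandem row, AT1G26410 and AT1G26420 rose with CT in SWT and AT1G26390 did not pass, and these 3 genes varied more between libraries of a group than the other members above 50 counts. The coefficient of variation fitted beyond counting noise was 56.8%, 62.4% and 41.4% for these genes in that order, against 11.8% to 21.3% for OGOX1, OGOX2, CELLOX, AT1G30700 and AT2G34790. AT1G26420 had 232 normalised counts per library in HO with CT and 111 in HO with water, against 2396 in SWT with CT and 277 in SWT with water. Its level in SWT with CT lay above every other group's interval, and that in HO with water was the lowest. The log2 fold change with CT was 1.06 in HO (SE 0.50, adjusted p = 1.00) and 3.11 in SWT (SE 0.49, adjusted p = 1.2e-08). The responses differed by -2.05 (95% interval -3.42 to -0.69), which missed the threshold by the z test after adjustment (adjusted p = 0.073).

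AT1G26410 had 302 normalised counts per library in HO with CT and 82.1 in HO with water, against 2384 in SWT with CT and 377 in SWT with water. The log2 fold change with CT was 1.88 in HO (SE 0.74, adjusted p = 1.00) and 2.66 in SWT (SE 0.74, adjusted p = 0.0045). The call in SWT was lost when the statistics were divided by their own spread over all genes (adjusted p = 0.20) and against the fold criterion itself (adjusted p = 1.00). AT1G26390 had 549 normalised counts per library in HO with CT and 150 in HO with water, against 1250 in SWT with CT and 599 in SWT with water. Its log2 fold change with CT was 1.87 in HO (95% interval 0.55 to 3.19, adjusted p = 1.00) and 1.06 in SWT (-0.25 to 2.38, adjusted p = 0.37). Neither passed, and the difference of 0.81 between the responses had an interval of -1.05 to 2.67. The level was highest in SWT with CT and lowest in HO with water for these 3 neighbours. This order was seen in 7 of the 8 oxidase genes above 50 counts, so it was not particular to the row. Its share over all genes was not counted.

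AT1G30700, next to CELLOX in level per kilobase of exon with overlapping intervals, rose with CT in SWT and had a smaller response in HO. It had 5689 normalised counts per library in HO with CT and 4957 in HO with water, against 12558 in SWT with CT and 6397 in SWT with water. The level of SWT with CT stood above the intervals of the other groups. The log2 fold change with CT was 0.20 in HO (SE 0.14, adjusted p = 1.00) and 0.97 in SWT (SE 0.14, adjusted p = 2.4e-10). The response in HO was smaller by 0.77 (95% interval -1.16 to -0.39, adjusted p = 0.0044). AT2G34790 had 577 normalised counts per library in HO with CT and 487 in HO with water, against 732 in SWT with CT and 515 in SWT with water. Its log2 fold changes of 0.24 in HO and 0.51 in SWT did not pass (adjusted p = 1.00 and 0.22), and all 4 intervals overlapped.

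**Figure D2:**
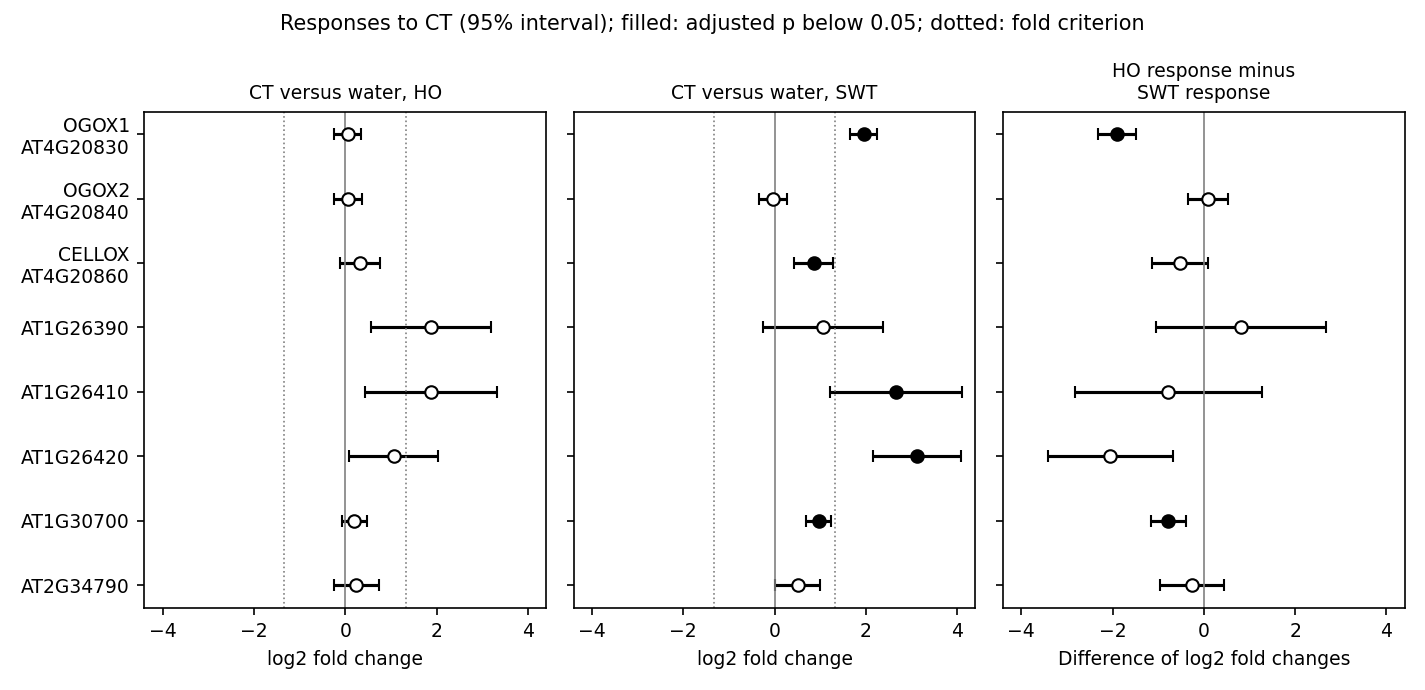
Log2 fold change with CT against water in HO (left) and SWT (middle), and the HO response minus the SWT response (right), for the 8 oxidase genes with a mean of at least 50 counts; bars are 95% intervals and filled points have an adjusted p below 0.05. In HO all points are open, in SWT 5 are filled, and on the right OGOX1 at -1.90 and AT1G30700 at -0.77 are filled.

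The HO response differed from the SWT response for 2 of the 9 genes, OGOX1 and AT1G30700, both smaller in HO, against 3.31% of all genes. The other 7 had differences that did not pass, and the noisy genes of the AT1G26390 row had the widest intervals among the genes above 50 counts. Without CT, 0 of the 9 genes were called between HO and SWT by the authors' test, against 0.113% of all genes called lower in HO. At an unadjusted p below 0.05, 5 were lower in HO with water, against 3.42% of all genes, and none was higher. These were CELLOX, AT1G26390, AT1G26410, AT1G26420 and AT1G30700, with log2 differences of -0.48, -2.00, -2.20, -1.32 and -0.37 and adjusted p-values of 0.99, 0.45, 0.45, 0.65 and 0.66. The SWT water libraries enter both this comparison and the SWT response, and the HO water libraries enter both this comparison and the HO response. A low level in HO with water is therefore part of the HO response of these genes too.

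With CT present, 3 of the 9 genes were called lower in HO than in SWT, a derived comparison in which 2.99% of all genes were called lower. The log2 differences were -2.00 for OGOX1 (SE 0.15), -2.98 for AT1G26410 (SE 0.74) and -3.37 for AT1G26420 (SE 0.49). The adjusted p-values were 6.0e-37, 9.2e-04 and 4.2e-10 in that order, and that of AT1G26410 was 0.14 when the statistics were divided by their spread over all genes. By the adjusted p alone CELLOX and AT1G30700 were lower too (log2 -1.01 and -1.14), 5 of 9 in all, against 9.0% of all genes. OGOX2 had 0.15 (95% interval -0.16 to 0.45).

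Levels of different genes were set side by side per kilobase of exon. In SWT with CT the order was CELLOX (7261 normalised counts per kilobase), AT1G30700 (6159), OGOX1 (3746), AT1G26420 (1318), AT1G26410 (1298), AT1G26390 (708), AT2G34790 (381), OGOX2 (294) and OGOX4 (2.67). CELLOX and AT1G30700 overlapped in their intervals, as did the 3 genes of the AT1G26390 row, while OGOX1 stood apart from its neighbours in the order. Of the other family genes, AT5G44380 (10945) and AT1G26380 (8786) lay above CELLOX in SWT with CT, AT1G26380 with an overlapping interval. Genes on the opposite strand overlap OGOX1 (1570 bases) and AT2G34790 (65 and 538 bases). Whether this altered their levels and shares per kilobase was not tested. In SWT with water CELLOX (4008) and AT1G30700 (3137) again led with overlapping intervals and OGOX1 had 964, while AT1G26390, OGOX2, AT2G34790, AT1G26410 and AT1G26420 lay between 152 and 339. Summed over the 9 genes, the level was 8554 per kilobase in HO with CT and 6962 in HO with water, against 21168 in SWT with CT and 9375 in SWT with water. CELLOX made up 42.1% and 41.2% of that sum in HO with CT and with water, against 34.3% and 42.7% in SWT with CT and with water. OGOX1 made up 10.9% and 12.9% in HO with CT and with water, against 17.7% and 10.3% in SWT with CT and with water.

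Of the 11 other family genes, 5 rose with CT in SWT by the adjusted p, against 8.3% of all genes, and 1 fell, against 3.23%. The 2 called genes, against 2.58% of all genes, were AT1G26380 (log2 4.29, SE 0.58, adjusted p = 1.6e-11) and AT1G30760 (1.60, SE 0.24, adjusted p = 8.4e-10), whose protein oxidises monolignols in vitro as that of AT2G34790 does. The coding sequences of AT1G30760 and AT2G34790 are 76.5% identical. AT1G30730, AT5G44380 and AT5G44390 rose by 0.90, 0.84 and 0.87. AT4G20820, which lies 3449 bases before OGOX1, fell by 0.87 in SWT with CT (adjusted p = 1.5e-05). In HO none of the 11 passed, with values between -0.37 for AT1G30740 and 1.98 for AT1G26380. The response in HO was smaller than in SWT for AT1G30760 (-1.62, adjusted p = 1.1e-04) and shifted upward for AT4G20820 (1.00, adjusted p = 0.0023), while AT1G26380 had a difference of -2.31 with an adjusted p of 0.10. In water the values ran from -1.76 for AT1G26380 to 0.14 for AT5G44410, and none passed. With CT present, AT1G26380 (-4.07) and AT1G30760 (-1.61) were called lower in HO, against 2.99% of all genes. By the adjusted p alone, AT1G30730 (-1.09), AT5G44380 (-0.87) and AT5G44390 (-0.92) were lower as well, 5 of 11 in all against 9.0% of all genes. AT4G20820 (0.89, adjusted p = 1.0e-05) and AT5G44410 (0.64, adjusted p = 0.039) were higher, against 4.28% of all genes. The level of AT1G26380 was highest in SWT with CT and lowest in HO with water, as for AT1G26390, AT1G26410 and AT1G26420. The same order held for 6 of the 10 other family genes above 50 counts, AT1G26380 included.

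**Figure D3:**
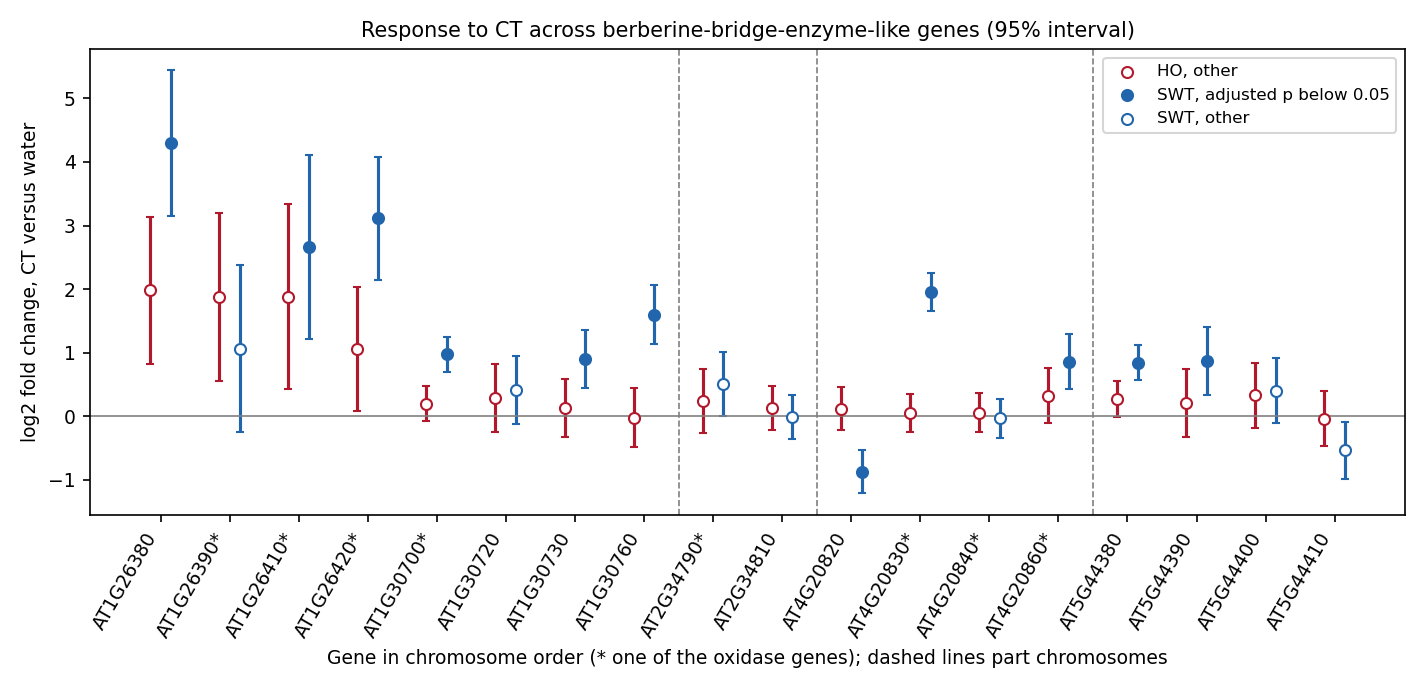
Log2 fold change with CT against water (y axis) in HO (red) and SWT (blue) for the 18 family genes with a mean of at least 50 counts, in chromosome order; bars are 95% intervals, filled points have an adjusted p below 0.05 and stars mark the oxidase genes described here. In SWT the row that holds AT1G26380 reaches 4.29, OGOX1 stands at 1.96 between AT4G20820 at -0.87 and OGOX2 at -0.03, and no HO point is filled.

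Genes for wall hydrolases, pectin methylesterases and inhibitors were measured for 17 of 19 listed. Some act on the pectin and cellulose whose fragments OGOX and CELLOX oxidise. With CT in SWT, 1 rose by the adjusted p, the endoglucanase gene KOR2 (log2 0.56, SE 0.17, adjusted p = 0.0097), against 8.3% of all genes, and 0 were called higher, against 2.58%. At an unadjusted p below 0.05, 2 were higher and 1 was lower, against 12.3% and 8.48% of all genes, so these counts do not set the list apart. Their median was 0.04, with a lowest value of -1.82 for the polygalacturonase gene ADPG2 (adjusted p = 0.14) and a highest of 1.66 for CEL2 (SE 2.27, no adjusted p). CEL2 was under the floor of 3 counts over a group in HO with CT (1.98) and in SWT with water (1.96), so its values in every comparison rest on a few counts. In HO, 0 of 17 passed and none had an unadjusted p below 0.05, with values between -0.68 for CEL2 and 0.17 for QRT2. In water they lay between -0.61 for PME41 and 0.69 for CEL2, and none passed. With CT present, the pectin methylesterase gene PME41 was lower in HO than in SWT by 1.26 (adjusted p = 4.2e-04) and the endoglucanase gene KOR1 was higher by 0.33 (adjusted p = 0.034). By the adjusted p alone this was 1 lower and 1 higher of 17, against 9.0% and 4.28% of all genes. Neither was called.

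The genes whose 3 fold changes lay closest to those of OGOX1, by Euclidean distance over 17564 genes with a mean of at least 50 counts, were PAL2 (AT3G53260, a phenylalanine ammonia-lyase, distance 0.05), AT3G19010 (0.08) and APK (AT2G14750, an adenosine phosphosulfate kinase, 0.10). PAL2 had log2 fold changes of 0.05 with CT in HO and 1.98 with CT in SWT, and -0.05 between HO and SWT in water. Those nearest to CELLOX were AT5G03330 (0.06), AT3G54120 (0.09) and WRKY8 (AT5G46350, a WRKY transcription factor, 0.09). WRKY8 had 0.36 with CT in HO and 0.87 with CT in SWT, and -0.40 in water. These distances rest on 3 values per gene from the same 12 libraries.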

How the data were processed

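The authors sequenced poly-A RNA of seedling roots, aligned reads to TAIR10 with STAR 2.7.10a, counted them with featureCounts 2.0.1 and fitted DESeq2 1.34.0. The 3 deposited tables hold only the authors' comparisons: the mean normalised count over 12 libraries (a signal per gene), the log2 fold change with its SE, the Wald score and the p-value with its adjusted value. These fitted values were used as given. In SWT, 1344 genes with a p had no adjusted p.

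Group means were recovered from the mean and the 3 fold changes, and the spread from the SEs, with Python 3.11.15, numpy 2.4.6, pandas 2.3.3 and scipy 1.17.1. The direction of the contrasts was checked on 7865 genes, where the deposited signs gave the smallest deviation of the 8 sign choices. The difference of the CT responses was tested by z, and HO against SWT with CT was derived from the 3 contrasts, as holds when all groups share 1 fit. Both used two-sided normal p-values, Benjamini-Hochberg adjusted over 23103 genes. Called means an adjusted p below 0.05 and a log2 change of at least 1.33, the study's criterion, and for the difference of responses the adjusted p alone. The steps were run on simulated counts, with the spread of each gene taken as known and no new fit. That run checks the arithmetic and not the fitted SEs. Sequences, exon lengths and motifs came from RefSeq TAIR10.1, aligned with Biopython 1.88, and figures were drawn with matplotlib 3.10.9. The members and lists were chosen with earlier results of these data known. Genes outside the oxidase list are named where called, where highest or lowest in a contrast, or as the 3 nearest patterns of the oxidase gene of smallest p and of CELLOX. Those named only for an adjusted p or a motif count, and the sequences shown, were chosen after their values were seen.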

Additional observations from a re-analysis of the deposited data

Results flagged for a closer look

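OGOX1 (AT4G20830) had a smaller response to CT in HO than in SWT, by a difference of -1.90 on the log2 scale (SE 0.21, adjusted p = 7.5e-16 by a z test of the difference). AT1G30700 had a smaller response in HO too, by -0.77 (SE 0.20, adjusted p = 0.0044). Both were taken up because the test of the difference between the genotypes passed.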

How the results depend on the processing

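Of the values recomputed under other thresholds, tests, gene sets, filters, scales and centring, 279 kept their direction and their side of the threshold, 4 passed it, 7 no longer passed it and 0 changed direction. Without the fold criterion, 5 oxidase genes instead of 3 were called with CT in SWT, and 5 instead of 3 were lower in HO with CT. The difference of responses gave 1 gene (OGOX1) instead of 2 when it had to reach the fold criterion, and 0 when tested against that criterion, where 33 of all genes passed. AT1G26410 lost its calls in SWT and with CT when tested against the criterion or on statistics divided by their spread, which was 1.45 in SWT and 0.772 in HO. The spread in SWT also holds the genes that responded to CT, so it is not a measure of noise alone. CELLOX, which passed the adjusted p alone in both comparisons, did not pass on the divided statistics (adjusted p = 0.13 and 0.059). Of all genes, 615 were called with CT in SWT, 2508 without the fold criterion and 139 against the criterion itself. Leaving out each library was not run, since no value per library was used, and a call that rests on 1 library would not be seen. No paired analysis was possible because the columns carry no library values. Adjusting the difference of responses and the derived comparison over all genes with a p is how they were made, so that alternative gave no second value.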
